A study of Drosophila melanogaster with 3 samples.

Results

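The 10 genes described here control programmed cell death in Drosophila melanogaster. They were rpr, grim, hid and skl, which encode antagonists of inhibitor of apoptosis proteins (IAPs), Diap1, the IAP gene they act against, Dronc and Dark, whose products form the fly apoptosome, the effector caspase genes Drice and Dcp-1, and p53. Taken by name, they were 10 of the 13945 protein-coding genes annotated on the 6 chromosome arms. The data were chromatin immunoprecipitations with sequencing (ChIP-seq) of PHDP, a paired-like homeodomain protein, from whole embryos of 10 to 24 hours. All 3 biological replicates were of 1 transgenic fly line with stable expression of PHDP fused to GFP at the C terminus, and GFP was the target of the antibody. Every library carried the tag and every peak list was made against 1 shared control, so signal that does not depend on PHDP cannot be told apart from binding of PHDP. As whole embryos were used, a weak peak in many cells and a strong peak in few cells cannot be told apart.

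A peak was counted for a gene when its summit, the position of highest signal, lay in the gene body or within 2 kb of it. Because hid, grim, rpr and skl lie one after another on arm 3L, peaks in the space between them were also counted. The main set was the list of peaks that passed the authors' irreproducible discovery rate (IDR) filter, whose middle rank is 3546. These rules were met by 30 of its peaks, or 0.423%. In all, 14 lay in or within 2 kb of a body and 17 in the space between the clustered genes, with 1 in both. Each peak is named below by the member whose start site was nearest and by the distance of its summit from that start site in bp, with a minus sign for upstream. The signal is a value per peak set by the authors and was used to rank and compare peaks within a list, where rank 1 is the strongest. Its scale differs between lists, so the SDs given over replicates include differences in scale. Each replicate list and the list from the pooled replicates held 30000 peaks, whatever was bound, and the lists reached down to −log10 q values of 0.348 in the pooled list, so their weakest peaks had little support. Sequencing depth is unknown from these files.

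In flies, most developmental cell death is started by transcription of rpr, grim and hid, whose products bind Diap1 and remove its block on caspases. Freed Dronc, the initiator caspase, assembles with the adaptor Dark and cleaves the effector caspases Drice and Dcp-1, which take the cell apart. p53 activates several of the antagonist genes after DNA damage, and the wide space between the clustered genes is known to hold enhancers that act in embryonic cell death.

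The sequences under a few of the 30 peaks are shown first, since the results refer to them. They are from the RefSeq genome of the release 6 assembly, which has the dm6 coordinates of the peak files, and give the + strand 5′ to 3′ around the summit. Diap1 +657 (3L:16046089-16046289) was the strongest of the 30 peaks, and hid -50936 (3L:18236477-18236677) the strongest between the clustered genes. The hid -361 peak (3L:18185902-18186102) was the one at the start of an IAP antagonist gene. Diap1 -794 (3L:16051728-16051928) and p53 -41 (3R:23054083-23054223) are shown for the words they hold, and "rpr p53 word" (3L:18403237-18403296) for a match to the p53 consensus. Capitals mark TAATTA, the core word of many homeodomains, and Motif 1 (GGTCACAC) on either strand in Diap1 -794, the DNA replication-related element (DRE, TATCGATA) in p53 -41, and the p53 match in the last sequence. The first 3 windows held none of the 8 words searched, which are listed with the other word results. The bases of p53 -41 stop at the edge of the annotated p53 transcript.
Diap1 +657: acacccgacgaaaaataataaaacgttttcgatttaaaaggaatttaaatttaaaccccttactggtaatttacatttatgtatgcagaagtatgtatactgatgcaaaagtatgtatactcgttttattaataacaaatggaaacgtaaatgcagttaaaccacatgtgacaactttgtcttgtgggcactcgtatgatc
hid -50936: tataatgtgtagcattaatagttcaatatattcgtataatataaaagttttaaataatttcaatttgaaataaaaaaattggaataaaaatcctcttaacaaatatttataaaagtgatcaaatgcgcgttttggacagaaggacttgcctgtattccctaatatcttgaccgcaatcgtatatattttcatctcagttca
hid -361: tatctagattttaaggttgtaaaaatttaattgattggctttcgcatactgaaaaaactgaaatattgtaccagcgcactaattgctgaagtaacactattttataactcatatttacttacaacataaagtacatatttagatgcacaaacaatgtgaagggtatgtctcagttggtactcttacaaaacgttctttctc
Diap1 -794: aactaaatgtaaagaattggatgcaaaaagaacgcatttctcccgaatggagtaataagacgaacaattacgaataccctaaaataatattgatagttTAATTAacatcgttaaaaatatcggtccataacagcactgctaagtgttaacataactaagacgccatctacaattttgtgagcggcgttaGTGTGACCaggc
p53 -41: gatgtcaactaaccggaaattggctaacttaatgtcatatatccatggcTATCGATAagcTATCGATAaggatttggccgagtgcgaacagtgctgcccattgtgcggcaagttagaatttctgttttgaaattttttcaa
rpr p53 word: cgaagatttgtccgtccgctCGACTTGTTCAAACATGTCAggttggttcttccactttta

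IDR peaks at start sites were found for hid among the antagonists, for Diap1, for Dark of the apoptosome and for p53, and for neither effector caspase gene. These 4 of the 10 genes had an IDR summit no more than 1 kb from a start site, as did 28.9% of all protein-coding genes. Counting the body and 2 kb on each side, 5 of the 10 had an IDR summit, with Dronc added, against 42.4% of all protein-coding genes. Longer genes can hold more summits, and the 10 bodies ran from 901 bp at rpr to 17897 bp at hid. The 2 genes grim and skl had no summit in the body or within 2 kb in any of the 5 peak lists, as did 26.2% of all protein-coding genes. With 10 genes picked by name no test was made of these shares.

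By the strongest summit within 1 kb of any start site, the replicates gave the same order, with Diap1 first, then p53 and then hid. The strongest start-site peak of Diap1 had signals of 504, 653 and 370 in replicates 1, 2 and 3, and that of p53 had 224, 173 and 174. At hid the signals were 204, 160 and 146. Diap1 stood above the others in every replicate, and p53 stood above hid in each, although their means, 190 ± 28.9 and 170 ± 30 (SD, n = 3), differed by less than the SD. The Diap1 lead rested on Diap1 +657, an intronic peak taken over 5 start sites, where p53 has 3 and hid 1. Diap1 +152, the Diap1 IDR peak within 500 bp of one of its start sites, had 39.8, 113 and 99. These were below p53 and hid in each replicate. Dark was lowest of the 4, with 80.4 and 66.4 in replicates 2 and 3 and no summit in replicate 1. In single replicate lists of 30000 peaks, summits within 1 kb of a start site were present at 6, 7 and 6 of the 10 genes in replicates 1, 2 and 3, against 52.6, 55.8 and 54.7% of all protein-coding genes. In all 3 lists 4 of the 10, hid, Diap1, Dcp-1 and p53, had one (45.5% of all protein-coding genes), and 4, rpr, Dronc, Dark and Drice, had one in only 1 or 2 lists (17.9%). Since Dark +58 has no match in replicate 1, any peak set that requires that replicate loses it, and without replicate 2 or without replicate 3 the count was therefore 3 of the 10 genes, hid, Diap1 and p53.

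**Figure D1:**
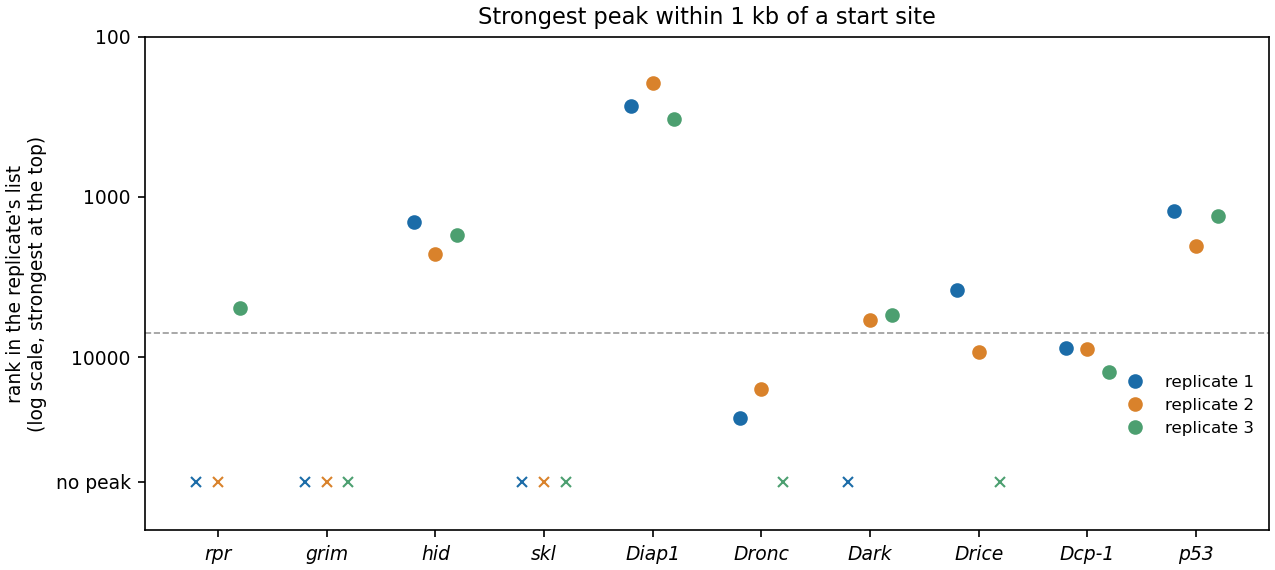
Strongest peak within 1 kb of a start site of each gene, as its rank in each replicate's list (log axis, strongest at the top), with crosses for no peak and a dashed line at the length of the IDR list. Diap1, hid and p53 were above the line in all 3 replicates, grim and skl had no peak, and rpr, Dronc, Dark and Drice lacked one in at least 1 replicate.

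Among the IAP antagonist genes, hid had IDR peaks of its own and rpr, grim and skl had none within 2 kb. hid (FBgn0003997, 3L:18167745-18185641, - strand) encodes the longest of these antagonists. Its start-site peak hid -361, at 3L:18185869-18186162 in intergenic sequence, ranked 1432, 2264 and 1725 in replicates 1, 2 and 3. A second peak, hid +5606 in an intron at 3L:18179932-18180118, had signals of 95.7, 163 and 76.7, or 112 ± 45.5 (SD, n = 3). Replicate 2 was high at the intronic peak and the other replicates were close to each other, so its spread was wide. The pooled list had 7 summits in or within 2 kb of hid.

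The rpr gene (FBgn0011706, 3L:18397535-18398435, - strand), the founding antagonist gene, had peaks upstream and a start-site summit in 1 replicate. No IDR or pooled summit lay within 1 kb of its start. Replicate 3 alone placed a summit in its 5' UTR, 24 bp downstream of the start, with a signal of 71.7 and rank 4932. Of the 4932 summits of replicate 3 at least that strong, 107 (2.17%) had no summit within 100 bp in either other replicate. The nearest pooled summit, rpr -1878, was weak, with a signal of 47.5 at rank 23939 of 30000 and a match in replicate 2 alone.

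Upstream of rpr, 2 IDR summits lay 705 bp apart. The nearer, rpr -4312, had signals of 126, 144 and 107, or 126 ± 18.5 (SD, n = 3). The farther, rpr -5017 (3L:18403254-18403649), had 71.1, 88.6 and 94.8, or 84.8 ± 12.3 (SD, n = 3). Their replicate ranges did not overlap, so the nearer was the stronger in these lists. Farther out, rpr -6132 was in the pooled list only, with signals of 41.7, 59.7 and 38.1 in the replicates. All 3 lay in the space towards skl, with no protein-coding start site nearer than that of rpr for both IDR peaks.

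The rpr -5017 interval held a sequence like the p53 consensus, whose known element upstream of rpr is a standard case of a p53 response in flies. The search allowed 2 letters off the 20-letter consensus and was chosen after the peak positions had been seen. The match shown above, at 3L:18403257-18403276, ran from -4822 to -4841 bp from the rpr start, at 2 letters off, and lay 176 bp from the peak's summit. It was the only match in the 30 peak intervals, and 48 of all IDR peak intervals (0.677%) held one. The arms held 1.9 matches per 100 kb, and the whole span from hid to skl held 4. These data do not show whether p53 was present at the site.

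grim (FBgn0015946, 3L:18302719-18304417) and skl (FBgn0036786, 3L:18438561-18439942), a pair of short antagonist genes on the - strand, stood in stretches without IDR peaks. The nearest IDR summit to grim was grim +22951, beyond the 3' end of the gene, where CG5103 has the nearest coding start. For skl it lay at -21309 bp, outside the cluster and nearest to CG32196, with a pooled signal of 1184 at rank 394. The nearest pooled summits were also distant, at -21453 bp for grim with a signal of 74.4 and at -20605 bp for skl with a signal of 38.5. The weakest IDR peak had a signal of 172, above both.

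Between the clustered genes, IDR summits were unevenly placed. The stretch from hid to grim, 117 kb long, held 13 IDR summits, or 1.11 per 10 kb, against 0.53 per 10 kb over the arms. The density over the arms takes in their whole length, peakless sequence included. The stretch from grim to rpr, 93.1 kb long, held 2, or 0.215 per 10 kb. The stretch from rpr to skl, 40.1 kb long, held 2, or 0.498 per 10 kb. All 17 lay outside the bodies of the other annotated genes in the space, among them CG7320, CheA75a, CG5103 and CG13700. Among each replicate's strongest 5000 peaks, the hid to grim stretch held 10, 9 and 13 summits in replicates 1, 2 and 3, the grim to rpr stretch 1 in each, and the rpr to skl stretch 1, 1 and 2. The replicates thus all placed more summits between hid and grim than in the other stretches, which are shorter.

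**Figure D2:**
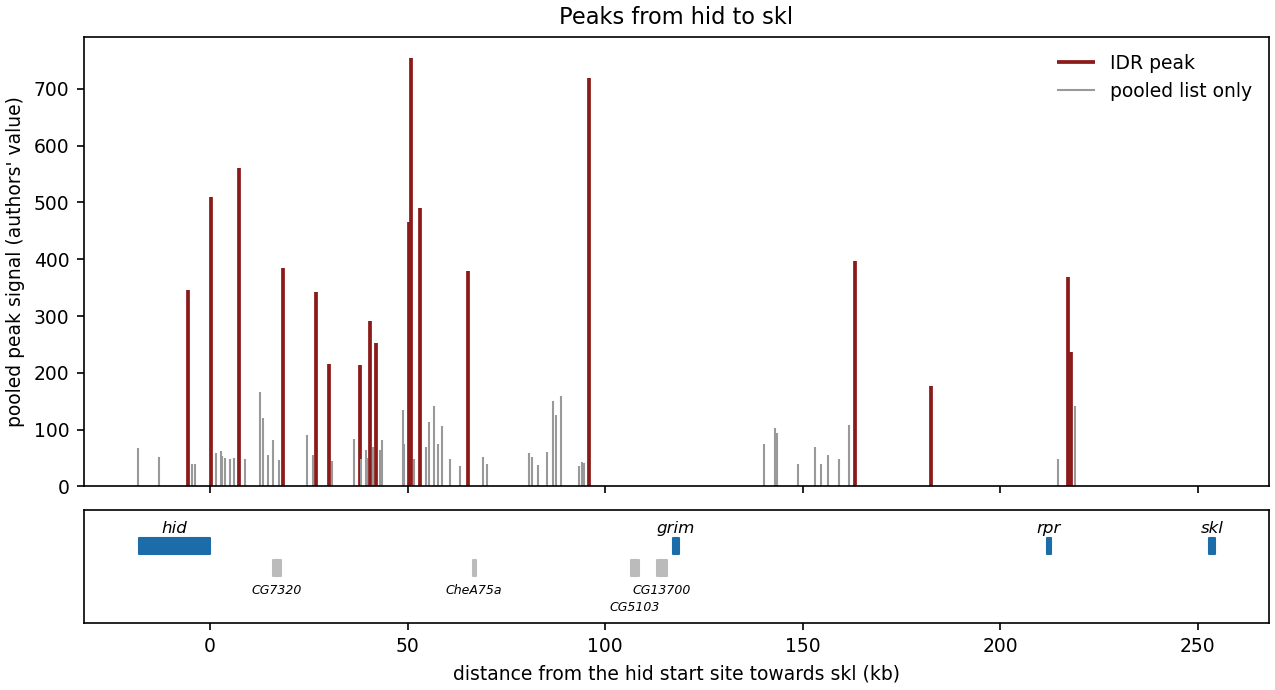
Pooled signal of every pooled peak (vertical axis, the authors' value) by distance in kb from the hid start site towards skl, with IDR peaks in red and the bodies of protein-coding genes beneath. Of the 18 IDR peaks in the span, the tallest lie between hid and grim, with signals of 754 and 719, and none lies in the 67.3 kb around grim.

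The genome was also cut into tiles of the same lengths, a comparison added after the data had been seen. The hid to grim stretch held more summits than most tiles. The others lay near the middle when tiles without an IDR summit were counted. Tiles of the hid to grim length held a median of 5 IDR summits, and 13.2% of 1141 such tiles held at least 13. Tiles of the grim to rpr length held a median of 4, and 38.5% of 1434 held 2 or fewer. For the rpr to skl length the median was 1, and 46.5% of 3334 tiles held 2 or more. The tiles covered the whole arms, and for each length tiles without an IDR summit were more common than tiles with any other count. Leaving them out would lower the 38.5% for grim to rpr and raise the 13.2% and 46.5%. The place of grim to rpr near the middle thus depends in part on such tiles, and the shares without them were not worked out. The longest gap between neighbouring IDR summits in the span was 67.3 kb, from 18281466 to 18348767 on 3L, and grim lies in it. Of the 7086 gaps between neighbouring IDR summits on the arms, 5.32% were as long or longer, and the median gap was 5776 bp. The gap held 9 summits of the pooled list, so it was not empty of weaker peaks.

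**Figure D3:**
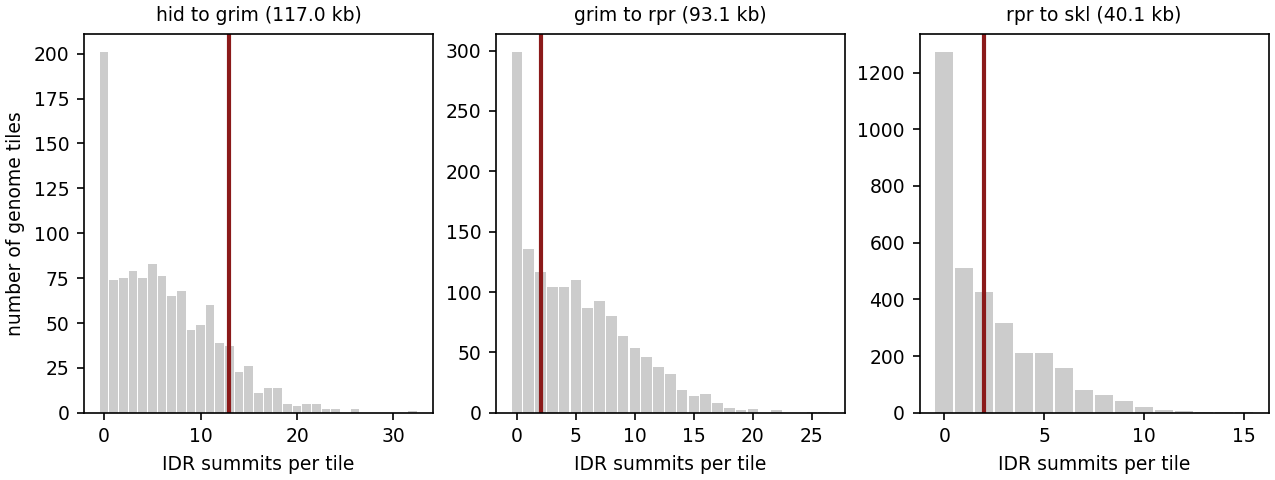
Number of genome tiles (vertical axis) by IDR summits per tile (horizontal axis) for tiles as long as each stretch, with a red line at the stretch itself. The hid to grim line, at 13 summits, stands to the right of most tiles, and the lines of the other stretches, at 2, stand among the common values. Tiles without a summit are included and are the most common for each length.

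Apart from hid -361, the strongest peaks of the hid to grim stretch were away from coding start sites. hid -50936 (3L:18236338-18236703) had signals of 249, 254 and 262 in replicates 1, 2 and 3, or 255 ± 6.88 (SD, n = 3), and ranked 914 in the IDR list. Next came grim +22951 (3L:18281279-18281595) with 230, 294 and 205, or 243 ± 46.2 (SD, n = 3). Their order differed between the replicates, with grim +22951 higher in replicate 2 and lower in replicates 1 and 3. hid -7404 (3L:18192867-18193182) followed with 205, 196 and 168, hid -361 came after it, and hid -53079 (3L:18238588-18238888) had 181, 161 and 143. The hid -50309 summit lay beside the leading peak and varied more, with 120, 255 and 163 in the replicates. The remaining 7 summits of the stretch had mean signals from 66.5 at hid -37942 to 126 at hid -18485, with 114 at hid -26750 and 71.4 at hid -30217. Of the 7, grim +53496 was the one nearest to a coding start, -1167 bp from that of CheA75a, and had 84.4, 132 and 151 in the replicates.

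The grim to rpr stretch held peaks weaker than these leading ones. grim -44350 (3L:18348647-18348879) had signals of 140, 136 and 123, or 133 ± 9.28 (SD, n = 3). rpr +30450 (3L:18367787-18368182) had 82.2, 54.2 and 40.6, and its IDR rank, 6887, was the lowest of the 30 peaks. The next 3 pooled summits, grim -43049, grim -24219 and grim -24837, had pooled signals of 109, 102 and 94.9. They fell outside the IDR list, and none was matched in all 3 replicates.

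Diap1 had more IDR summits than any other of the 10 genes. Diap1 (FBgn0260635, 3L:16038410-16051034, - strand) encodes the main brake on fly caspases and has 5 annotated start sites. Its body and 2 kb on each side held 7 IDR summits, a number that 1.02% of all protein-coding genes reached or passed, and 4.21 per 10 kb against 0.53 over the arms. Within 1 kb of a start site were 4 of these 7, Diap1 +657, Diap1 +152, Diap1 -596 and Diap1 -794. The replicate lists placed 20, 19 and 19 summits in the same window.

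The leading peak, Diap1 +657, lay in an intron at 3L:16045814-16046376 and was the strongest of the 30 in every replicate. It ranked 271, 193 and 325 in replicates 1, 2 and 3 and 234 in the IDR list, with a mean signal of 509 ± 142 (SD, n = 3). Replicate 3 was lowest and replicate 2 highest, in the order of the replicates' own scales, whose median signals over as many strongest peaks as the IDR list holds were 109, 116 and 89.8 in replicates 1, 2 and 3.

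The other peaks at Diap1 were weaker. Diap1 +1381, in the same intron region at 3L:16045346-16045724, had 127, 164 and 120, or 137 ± 23.5 (SD, n = 3). Diap1 -596, at 3L:16042968-16043363 in an intron, had 91.9, 109 and 75.2, or 92 ± 16.8 (SD, n = 3). Diap1 -1446, at 3L:16048243-16048380 in an intron, had 141, 79.7 and 74.9, with replicate 1 apart from the others. Diap1 +152 lay in the 5' UTR at 3L:16050346-16050684, 515 bp downstream of the first start site and nearest to the start site at 363 bp. It had 39.8, 113 and 99, or 84 ± 39 (SD, n = 3). Replicate 1 was low there, at rank 12661 of 30000, which made this the widest relative spread of the 30 peaks.

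The outermost of the 7 peaks belonged as much to neighbouring genes. Diap1 +3344 (3L:16037040-16037305) lay in the 3' UTR of CG5895, past the end of Diap1, and had 155, 222 and 209, or 195 ± 35.6 (SD, n = 3). Diap1 -794 (3L:16051729-16051841) had its summit -131 bp from the start of Mbs, which encodes a myosin phosphatase subunit and is divergent from Diap1, with start sites 925 bp apart. It was matched in replicates 2 and 3, with 90.8 and 62.8, and not in replicate 1. The other 5 lay in the Diap1 body.

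**Figure D4:**
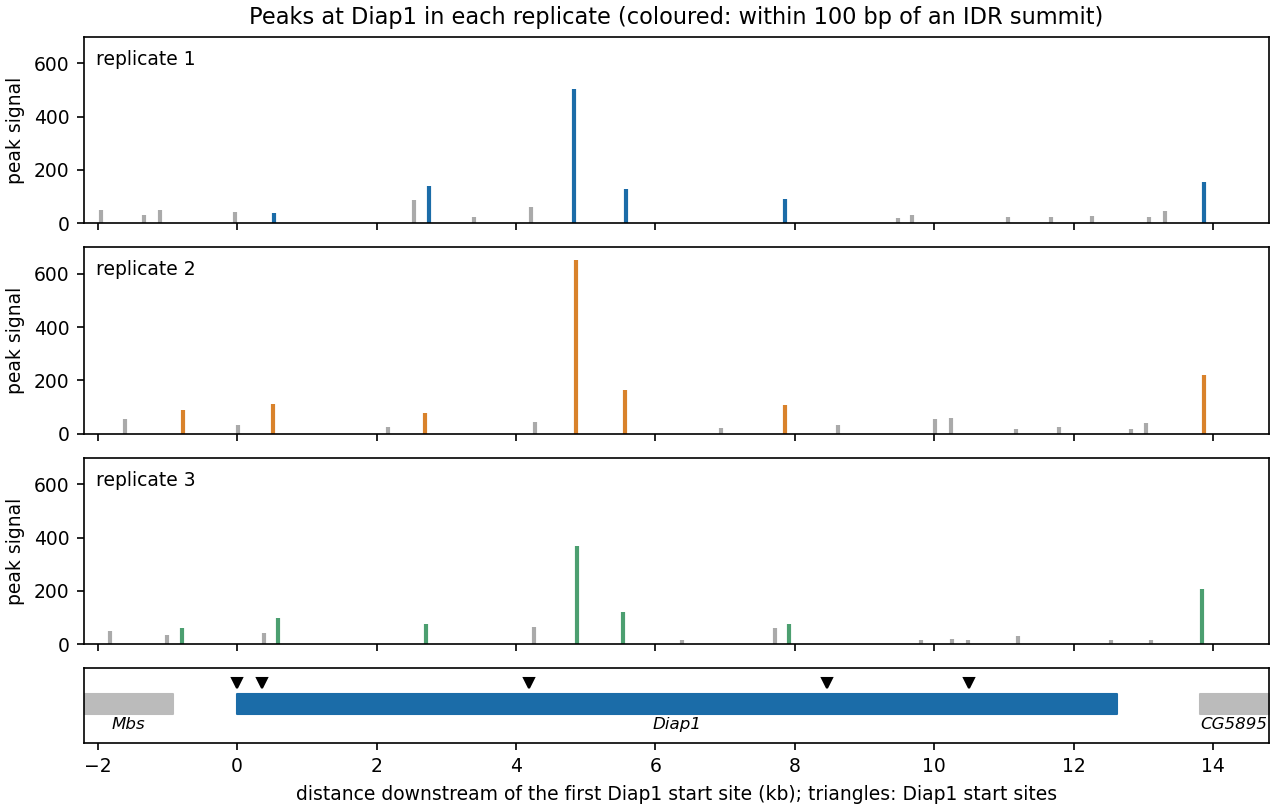
Signal of every peak of each replicate's list (vertical axes, the authors' value) by distance in kb downstream of the first Diap1 start site, coloured within 100 bp of an IDR summit, with gene bodies and Diap1 start sites beneath. The tallest peak stands at one place in all 3 replicates with 504, 653 and 370, and the coloured peak beside Mbs is missing in replicate 1.

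Dronc (FBgn0026404, 3L:9968479-9971002, + strand), the initiator caspase gene, had no IDR summit within 1 kb of its start. Replicate 1 had a summit in its 5' UTR at 161 bp with a signal of 22.6 and rank 23983, and replicate 2 one at 154 bp with 33.2 and rank 15714. Replicate 3 and the pooled list had none, and where the summit was called it ranked low. The IDR peak counted for the gene, Dronc +4202 (3L:9972483-9972878), lay past its 3' end in introns of vnc and CG42455, -75 bp from the start of vnc, and CG6674 also starts within 1 kb. It had 76.7, 75.8 and 75.7 in the replicates, or 76 ± 0.529 (SD, n = 3), the narrowest spread in signal of the 30 peaks. The scales of the lists differ, and its ranks in replicates 1, 2 and 3 were 5658, 6302 and 4580.

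Dark (FBgn0263864, 2R:17020027-17026703, + strand), the fly counterpart of Apaf-1, had an IDR peak at its start and another past its end. Dark +58 (2R:17019887-17020282) lay in its 5' UTR and was matched in replicates 2 and 3 only. The start site of Paip1 lies 505 bp from that of Dark, so the peak was within 1 kb of both. Dark +6985 (2R:17026937-17027145) had 174, 136 and 160, or 157 ± 18.8 (SD, n = 3), above the start-site peak in both replicates that had it, but its summit was closer to the start of a neighbouring gene than to that of Dark.

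Neither effector caspase gene had an IDR summit in its body or within 2 kb. Drice (FBgn0019972, 3R:29799658-29801584, + strand) had start-site summits in replicate 1, at -92 bp with a signal of 104 and rank 3817, and in replicate 2, at -53 bp with 55.4 and rank 9232. Replicate 3 and the pooled list had none there. Of the 3623 summits of replicate 1 at least that strong and matched in replicate 2, 72 (1.99%) had no pooled summit within 100 bp. The start of Rnb lies 304 bp away. The strongest pooled peak at Drice lay at 1631 bp with a signal of 57.2, and the nearest IDR summit was -16936 bp away, in the 5' UTR of kay, the fly Fos gene.

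Dcp-1 (FBgn0010501, 2R:23551313-23553547, + strand) had a start-site summit in the pooled list but not in the IDR list. With its count added, 5 of the 10 genes had a pooled summit within 1 kb of a start site, against 50.6% of all protein-coding genes. The stronger of its 2 pooled summits within 1 kb, at 23 bp, had a signal of 119 and rank 10425. Replicate 1 had one at 68 bp with 54 and replicate 2 one at -15 bp with 57, while the strongest within 1 kb in replicate 3 was at 752 bp with 34. Dcp-1 overlaps pita, which encodes a zinc finger protein, and their start sites lie 238 bp apart, so the peak cannot be assigned to either. The strongest pooled peak in the Dcp-1 body or within 2 kb lay at 3529 bp, with a signal of 143 and rank 8614. The nearest IDR summit was -3225 bp away, in the 5' UTR of wmd.

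p53 (FBgn0039044, 3R:23049657-23054082, - strand) had an IDR peak at its start and one past its end, and both were present in all 3 replicates. p53 -41 (3R:23054014-23054268) lay in an exon of the antisense gene asRNA:CR46089 and ranked 1228, 2021 and 1320 in replicates 1, 2 and 3. Its window held 2 copies of the DRE, as shown above. p53 +2373 (3R:23048732-23049034) had 213, 214 and 133, or 187 ± 46.5 (SD, n = 3), close to the 190 ± 28.9 of the start-site peak (SD, n = 3). Its summit was -643 bp from the start of CG17121, and its window held TAATTA. Gr94a overlaps p53, and its start is 459 bp from a p53 start site.

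For most of the 30 peaks the replicates placed a summit at the same position. A summit within 100 bp was present in all 3 replicates for 28 of the 30 (93.3%), against 90.5% of all IDR peaks, a list whose filter favours such matches. The other 2, Dark +58 and Diap1 -794, both lacked replicate 1. With a limit of 50 bp, 16 of the 30 were matched in all 3. The SD over replicates was 18.2% of the mean at the median peak, from 0.696% at Dronc +4202 to 46.4% at Diap1 +152.

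**Figure D5:**
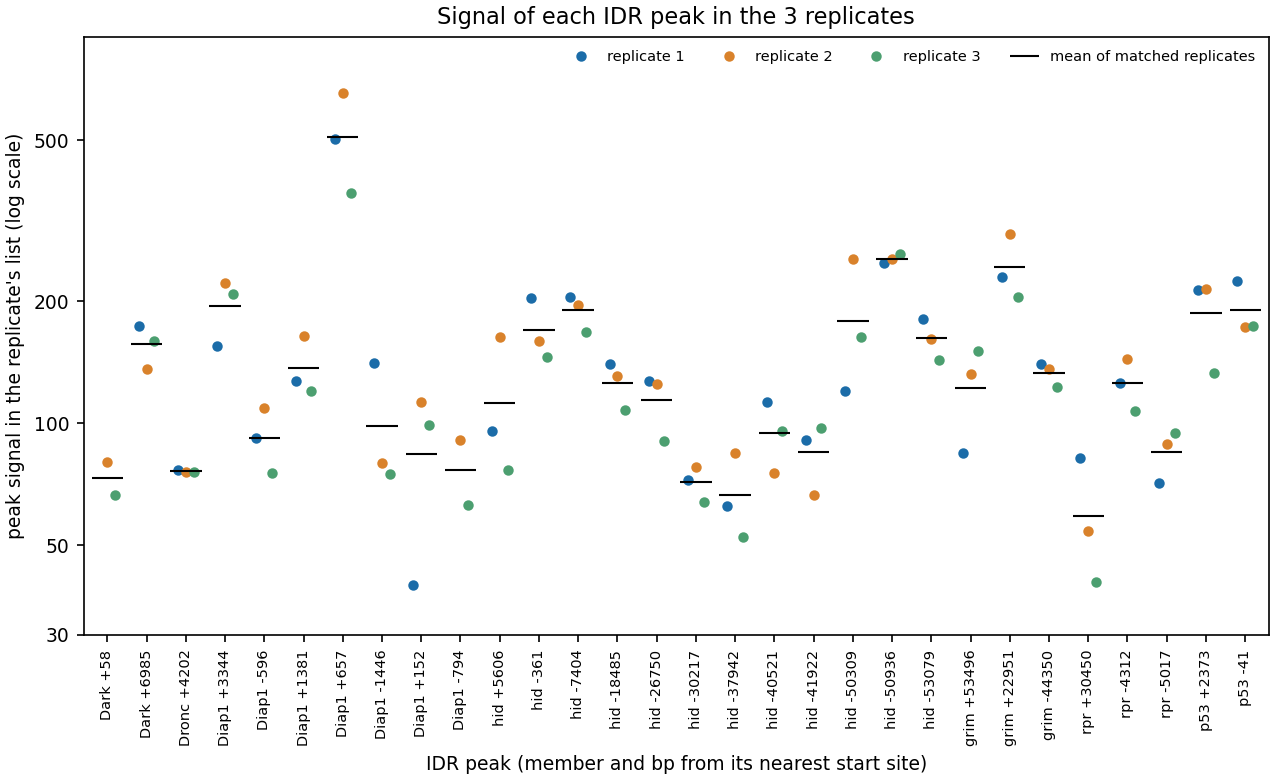
Signal of each of the 30 IDR peaks in each replicate's list (log axis, the authors' value), with a bar at the mean of the matched replicates. Diap1 +657 stands alone at the top with a mean of 509, and the other means run from 59 to 255.

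The 30 peaks were of middling rank, and their distances from start sites depended on the counting rule. A start site of any gene lay within 500 bp of 7 of the 30 summits, where 44.4% of all IDR summits had one. The space between the clustered genes, where coding genes are few, contributed 17 of the 30. Peaks there were counted at any distance from a start, so the share in the 30 is not comparable with that in all IDR peaks. All 7 were among the 14 peaks in or within 2 kb of a body. Of these 7, 4 were at the start of a member and 3 at the start of a neighbouring gene. The median IDR rank was 2830, with 18 of the 30 above the middle rank of the list, and pooled signals ran from 176 to 1551, against a median of 301 over all IDR peaks.

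The words under the 30 summits were near the frequencies of all IDR summits. Presence was scored on either strand within 100 bp of the summit, and at these counts a single window is 3.33% of the set. TAATTA was present in 5 windows (16.7%), against 18.8% of all IDR summit windows, at Diap1 -596, Diap1 -794, hid -37942, hid -53079 and p53 +2373. The pair of paired-class palindromes P2 and P3, both of which contain TAAT, were in none, against 2.65 and 3.07% of all windows.

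Words of other factors were also scored. The DRE was in 1 window, p53 -41, against 3.12% of all windows, and Motif 1, a promoter word bound by M1BP, in 2, Dark +58 and Diap1 -794, against 2.19%. These were also the 2 peaks without a match in replicate 1. At Diap1 -794 the word lay in the window but outside the called peak interval. The GATA word AGATAA was in 4 (16.7% of all windows), at hid +5606, hid -40521, hid -41922 and rpr +30450. The AP-1 word TGANTCA was in 2 (5.26% of all windows), Diap1 -1446 and rpr -5017, and the forkhead word TGTTTAC in 2 (7.61%), Diap1 +152 and hid +5606. With windows of 50 bp either side, Motif 1 and AP-1 were in no window, GATA in 2, forkhead in 1 and the DRE still in 1. Median GC was 31.1% in the 30 windows and 33.8% in all, and the part of base composition in the word counts was not tested. No match says only that these letters are not in the window.

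A wider list of 34 other cell death genes, sorted by role, had an IDR summit within 1 kb of a start site at 19. The same share over all protein-coding genes was the 28.9% given above, and the lists were drawn up with earlier results of these data known, so the counts are a description. Without replicate 2 the count was 12, in a stricter set of 4999 IDR peaks that gave 21.6% of all protein-coding genes. None of the 4 other caspase genes, Dredd, Strica, Decay and Damm, had one, as Dronc, Drice and Dcp-1 had none. None of the 3 other IAP genes, Diap2, Bruce and Det, had one either. Counting the body and 2 kb on each side, 21 of the 34 had an IDR summit, against 42.4% of all protein-coding genes. By that rule Decay had 1 summit and Diap2 had 2. Within 1 kb of a start site, the counts were 5 of 7 in the TNF pathway and 5 of 6 in DNA damage signalling and p53 control. With mitochondrial products the count was 3 of 4. For engulfment genes it was 2 of 5, for the Bcl-2 family 1 of 2 and for other regulators 3 of 3. Some of the peaks counted here also lay within 1 kb of the start of another coding gene, as given below.

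Among these genes the strongest peak was at a cytochrome c gene. The Cyt-c-d peak (2L:16716152-16716542), 381 bp from a start site, had 665, 715 and 500 in replicates 1, 2 and 3, or 626 ± 113 (SD, n = 3), and ranked 157 in the IDR list. It was above Diap1 +657 in each replicate, and CG31808 also starts within 1 kb of it. Cyt-c-p, the other cytochrome c gene, had 231, 237 and 180 at 922 bp, and HtrA2, for a mitochondrial protease, had 153, 85.5 and 92.5 at 46 bp.

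In DNA damage signalling, the checkpoint kinase genes had peaks of unequal strength. mei-41 (ATR) had 325 and 205 in replicates 2 and 3 and no matched summit in replicate 1, and grp (Chk1) had 296, 187 and 266. tefu (ATM) had 152, 118 and 53.7, and lok (Chk2), which acts on p53, had 72.2 and 40 in replicates 1 and 3. Corp, a regulator of p53, had 101, 131 and 63.7. Of these 5, Corp is the one with no other coding start site within 1 kb of the peak, so 4 of the 5 peaks could be counted for a neighbour.

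In the TNF pathway, egr, the ligand gene, had 202, 108 and 112 at -311 bp, and grnd, a receptor gene, had 82.8, 83.2 and 60.2. Traf6, an adaptor gene, had 211 and 245 in replicates 1 and 2, and the kinase gene Tak1 and its partner Tab2 had mean signals of 88.7 ± 28.7 and 67.7 ± 5.04 (SD, n = 3). Of the rest, the engulfment genes ced-6, with 177, 160 and 144, and NimC4, with 65.3, 75.3 and 66.7, had no other coding start within 1 kb. Buffy had a mean of 59.3 ± 5.86 and ben, a ubiquitin-conjugating enzyme gene, 189 ± 51.7 (SD, n = 3). The dnr1 peak, at a caspase regulator gene, was matched in replicates 2 and 3 with 99.1 and 74.8. The peak at eIF3m, a translation factor gene also known as Tango7, was matched in replicate 1 alone with 78.3. Another coding start lay within 1 kb of the peaks of grnd, Traf6, Tab2, HtrA2, Buffy and eIF3m, so these too could be counted for a neighbour. The peaks of egr, Tak1, Cyt-c-p, dnr1 and ben had none.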

How the data were processed

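Peak lists of anti-GFP ChIP-seq from 3 replicates were used as deposited. Per the file headers and the notes with them, the authors made a peak list for each replicate and for the pooled alignments with 1 shared control on dm6, and from these lists an IDR list of 7092 peaks. Aligner and peak caller: not given in the sources used here. Fragments were of 200 to 800 (no unit stated), per the labels. The peak signal was set by the authors and its scale differs between lists. The deposited −log10 q values stop at a ceiling, so that every IDR peak has 4.24, and signal alone gave the ranks. Mitochondrial peaks were left out, and the control and signal tracks were not analysed here. The sequence of 1 further window and the name of 1 neighbouring gene are not reported here.

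Coordinates are 1-based on dm6, with the Ensembl release 115 annotation. The words searched at summits were TAATTA, P2, P3, DRE, Motif 1, GATA, AP-1 and forkhead, in windows of 201 bp. Errors are SDs over the matched replicates, where a match was a summit within 100 bp. With 1 group and no contrast, no test was made, and counts stand beside the same count over all genes, peaks or tiles. The members and gene lists were chosen with earlier results of these data known. The genes and peaks named are the members with all their IDR peaks, the 5 strongest pooled peaks of each stretch, the strongest pooled and nearest IDR peak of members without one, the other cell death genes with an IDR summit within 1 kb, and genes that start within 1 kb of a member peak. Of 34 other gene names, ced-6 and eIF3m were matched through RefSeq synonyms. The p53 consensus search and the genome tiles were added after the data had been seen. Alternatives were other peak sets, distances, flanks, windows and match rules, and leaving out each replicate. For counts of genes and summits, leaving out a replicate meant keeping only IDR peaks with a match in each remaining replicate, among as many of its strongest peaks as the IDR list holds. The calculations were tested on simulated data. Python 3.11.15, numpy 2.4.6, pandas 2.3.3 and scipy 1.17.1 were used.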

Additional observations from a re-analysis of the deposited data

How the results depend on the processing

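The 4 members with an IDR summit within 1 kb of a start site numbered 3 to 5 under every alternative run, while the share of all protein-coding genes ran from 17.2% above the middle rank (3 members) to 50.6% in the pooled list (5 members). Above the middle rank of the IDR list, the summits in bodies or within 2 kb were 8 (14 in the whole list), those in the space between the clustered genes 11 (17), the other cell death genes 10 (19) and the TAATTA windows 2 (5). In the pooled list, 8 members had a summit in the body or within 2 kb (5 in the IDR list), with 45 summits there and 72 in the space. In the strongest 5000 peaks, the other genes were 11 in replicates 1 and 3, and the space held 11 in replicate 2. With no flank, 3 members held 7 summits. A match limit of 50 bp left 16 of the 28 peaks matched in all 3 replicates, and word windows of 50 bp either side left 3 with TAATTA. Leaving out each replicate gave 3 to 4 members within 1 kb, 5 in the body or within 2 kb, 11 to 14 summits there, 14 to 15 in the space, 12 to 14 other genes, 28 to 30 matched peaks and a median signal of 117 to 132 (124 with all). Without replicate 2 the other genes were 12 and without replicate 3 they were 13. These sets are also stricter, with 4999 to 5095 peaks. Dark lost its start-site count without replicate 2 or 3 because both sets require replicate 1, where it has no match. Drice and rpr gained one in the strongest 5000 peaks of replicates 1 and 3. Read depth is unknown, so weak peaks, such as those at Dronc and rpr, cannot be given a counting error. No paired analysis was possible because there is 1 group.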
